A study of Homo sapiens with 6 samples.

Results

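The genes described here are 10 that ERK signalling switches on and that mostly act back on it: the dual-specificity phosphatases DUSP4, DUSP5, DUSP6 and DUSP7, the Sprouty genes SPRY1, SPRY2 and SPRY4, the related SPRED1, and the ETS transcription factors ETV4 and ETV5. They and the related lists below were chosen by name, with earlier results of these data known. The 10 came out of 18377 genes measured, and each had exactly 1 probe set. The cells were TF-1, a cytokine-dependent erythroleukaemia line of human origin, and the question of the series was the part PRL-3, a protein tyrosine phosphatase encoded by PTP4A3, plays in leukaemia. The PRL-3 group was TF-1 transfected with the human PRL-3 gene (arrays 4, 5 and 6), and the control group was TF-1 with a control vector labelled pEGFP (arrays 1, 2 and 3). The medium of both groups was RPMI with 10% fetal bovine serum and 5 ng/ml human IL-3, so ERK-activating cytokine was present in both groups. The labels do not say whether a transfected line was a clone or a pool, nor whether the RNA of replicate arrays was grown separately; p-values thus measure array-to-array spread that may be technical.

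As background, cytokine and growth factor receptors activate RAS, which works through RAF and MEK to activate the kinase ERK. ERK in turn raises transcription of proteins that restrain the pathway, so the mRNA of these genes is often read as a record of recent ERK output. DUSP6 and DUSP7 remove phosphate from ERK in the cytoplasm, DUSP5 does so in the nucleus, and DUSP4 is a nuclear phosphatase that acts on ERK and on other MAP kinases. Sprouty and SPRED proteins act further up, on the activation of RAS and RAF. ETV4 and ETV5, with ETV1, form the PEA3 group of ETS factors, which carry ERK signals to other genes. The repressor Capicua holds down several of these genes until ERK relieves it.

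Promoter windows of 300 bases (250 before and 50 after the annotated start, RefSeq, GRCh38.p14) were found for 6 of the 10 genes. There were 9 windows in all because SPRY1 and SPRY2 have several starts. None was found for DUSP4, DUSP5, ETV4 or ETV5. Of the 4 genes called higher below, only DUSP6 was thus searched, so the windows cannot set called genes against the rest. Those of DUSP6 and DUSP7 are shown because these close relatives changed unequally in point value below. That inequality had an exact permutation p of 0.1, and 0.25 after adjustment over 5 pairs. Whether the windows have a part in it was not tested. DUSP6 lies on the minus strand at chr12:89352452-89352751 and DUSP7 on the minus strand at chr3:52056522-52056821. Capitals mark Capicua octamers, and the DUSP7 window has none.
DUSP6: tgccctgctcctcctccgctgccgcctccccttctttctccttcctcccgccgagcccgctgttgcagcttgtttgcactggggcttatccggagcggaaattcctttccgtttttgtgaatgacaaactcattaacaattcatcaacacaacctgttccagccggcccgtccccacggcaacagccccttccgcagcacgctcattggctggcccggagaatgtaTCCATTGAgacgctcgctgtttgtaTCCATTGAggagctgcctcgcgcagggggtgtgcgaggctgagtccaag
DUSP7: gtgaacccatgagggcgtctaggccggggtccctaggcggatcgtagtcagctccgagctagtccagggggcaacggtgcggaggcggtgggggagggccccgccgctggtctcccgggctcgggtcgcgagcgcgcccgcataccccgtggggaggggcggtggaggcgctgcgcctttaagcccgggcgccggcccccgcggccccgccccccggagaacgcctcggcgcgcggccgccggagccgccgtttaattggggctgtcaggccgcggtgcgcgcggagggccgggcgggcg
The octamer in DUSP6 is TCAATGGA, read on the other strand as TCCATTGA, and it starts at bases 227 and 252 of the window, on either side of the annotated start. Both strands of the 9 windows were searched for the forms TGAATGAA and TCAATGAA, an ETS motif (CCGGAAGT), an AP-1 motif (TGANTCA) and a cyclic AMP response element (TGACGTCA), and 0 of the 9 held any of them. The remaining octamer forms, TGAATGGA and TCAATGGA, were added after the DUSP6 window had been seen. The 2 DUSP6 matches overlap no other motif searched. Of 35116 human promoter windows of this length, 0.51% held TCAATGGA, 3.77% held any of the 4 octamer forms and 0.327% held at least 2 octamers. The other shares were 4.14% for the ETS motif, 7.71% for AP-1 and 1.85% for the cyclic AMP element. The DUSP6 window was 58.3% G and C with 19 CpG, against 78.0% and 45 CpG in that of DUSP7. A match is a description of letters and not of a bound site.

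The transfected gene followed the labels on every array. PTP4A3 read 10.81, 10.93 and 10.79 in PRL-3 arrays, against 7.92, 8.03 and 7.97 in control arrays (log2 intensity), a difference of 2.87 ± 0.072 (SE, adjusted p = 2.24e-06, limma). Intensities below are as deposited, on a linear scale. Their median per array ran from 89.8 to 92.9. Of the measured erythroid and myeloid progenitor markers of TF-1, 8 of 8 lay above the 95th percentile of 339 olfactory receptor genes. Those receptor genes were taken to be mostly silent in TF-1, which was not tested. That percentile, 78.6, serves below as a mark of dim signal, since the table held no detection call. The T cell markers CD3D, CD3E and CD2 lay below it in 3 of 3, with a summed intensity of 171 to 185 in PRL-3 arrays and 158 to 179 in control arrays. Of the other lineages, 1 of 2 B cell markers (CD79A), 2 of 3 fibroblast markers (COL1A1 and COL1A2) and 1 of 3 epithelial markers (KRT19) lay above it, so a value over 78.6 does not by itself show expression. Their summed intensities were 108 to 115 in PRL-3 arrays and 114 to 124 in control arrays for B cells. For fibroblasts they were 298 to 310.3 in PRL-3 arrays and 274 to 328 in control arrays, and for epithelium 163 to 191 in PRL-3 arrays and 171 to 180.3 in control arrays. Adjusted p in limma for the markers of other lineages, T cells included, ran from 0.251 for CD3D to 0.981 for CD3E. Of the progenitor markers, 2 passed: KIT, the stem cell factor receptor, averaged 419.9 in PRL-3 arrays and 208 in control arrays (log2 difference 1.01, adjusted p = 0.000721, limma), and CSF2RA, the GM-CSF receptor alpha chain, rose by 0.27 (log2, adjusted p = 0.0407, limma). The other markers did not pass: IL3RA differed by 0.49, GATA1 by -0.08, KLF1 by -0.21, TAL1 by -0.28, CD34 by -0.44 and CSF2RB by -0.57 (log2). Their adjusted p ran from 0.0882 for CD34 to 0.885 for GATA1 in limma. KIT and the GM-CSF receptor can activate ERK, and the part of these receptor genes in the results below was not tested.

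Of the 10 genes, 4 were higher with PRL-3 and 0 were lower: ETV4, ETV5, DUSP6 and DUSP5. These 4 passed an adjusted p of 0.05 in limma, with adjustment over all 18377 genes, of which 4.58% were called higher, 3.11% lower and 7.69% in either direction. The other 6 did not pass; SPRY4, SPRY1, SPRY2 and DUSP4 had differences above 0, and DUSP7 and SPRED1 below 0. The median difference of the 10 was 0.20 on the log2 scale, against -0.02 over all genes. The PRL-3 and control arrays were apart, with no overlap, for the same 4 genes, which is also the case for 24.3% of all genes (12.1% higher and 12.2% lower with PRL-3). In the exact permutation test of a single gene, 3 arrays against 3 cannot give a two-sided p under 0.1, and each of the 4 had that value. As the arrays held whole cultures, a change in every cell and a change in the share of cells that use a gene cannot be told apart.

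**Figure D1:**
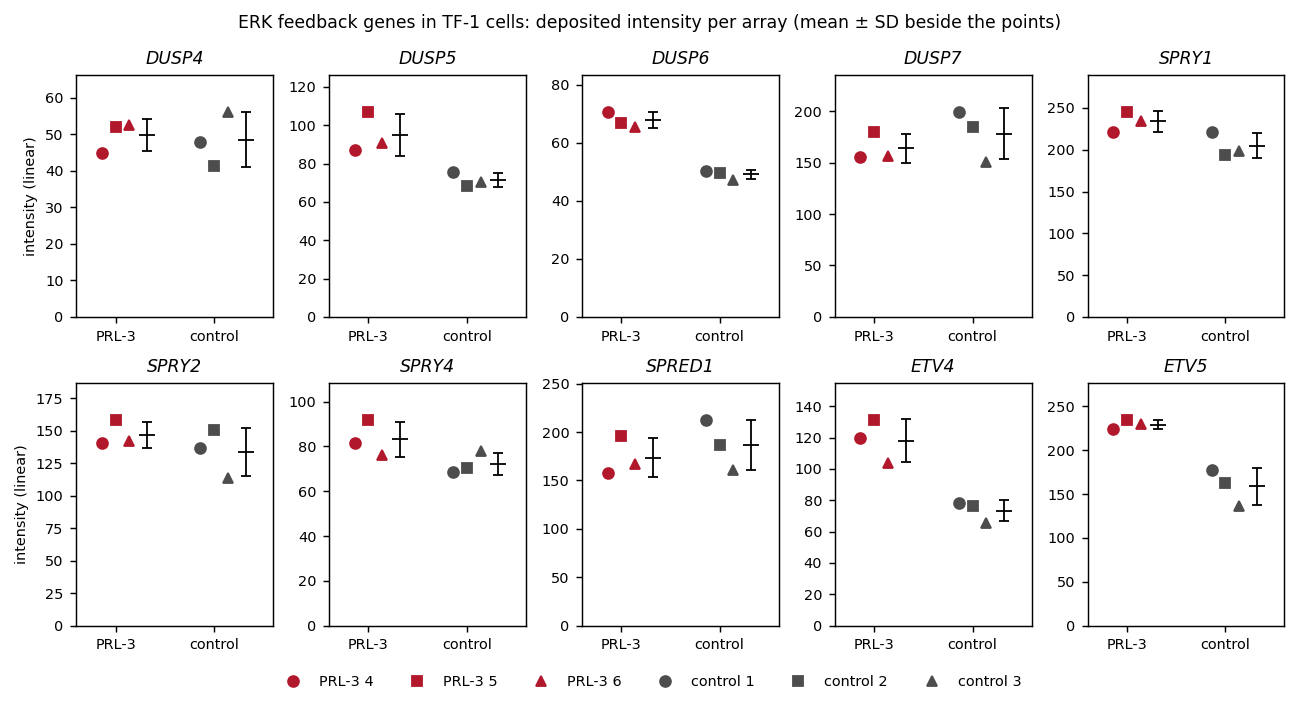
Deposited intensity (linear, each axis from 0) of the 10 genes on 3 PRL-3 arrays and 3 control arrays, one panel per gene, with symbols for single arrays and bars for mean ± SD (n = 3). The red PRL-3 points lie wholly above the grey control points for DUSP5, DUSP6, ETV4 and ETV5, and the groups overlap for the other 6. Among all genes, 24.3% had no overlap in either direction.

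Among the ETS factors, ETV4 had the largest difference of the 10 genes. Its probe set 8015806 read 119, 131 and 104 in PRL-3 arrays, against 78.1, 76.1 and 65.7 in control arrays. The lowest PRL-3 array, number 6, was well clear of the highest control array, number 1, and all 3 control values lie under the 78.6 mark. The log2 difference was 0.68 ± 0.107 (SE, 95% interval 0.44 to 0.93), or 1.61-fold, with adjusted p = 0.00779 in limma. ETV5 (probe set 8092578) read 224, 234 and 230 in PRL-3 arrays, against 178, 162 and 136 in control arrays. The PRL-3 arrays lay close together, with an SD of 0.033 on the log2 scale, while the controls spread over an SD of 0.198, with control 3 lowest. ETV5 rose by 0.54 ± 0.101 (log2, SE, 95% interval 0.31 to 0.77), or 1.45-fold, with adjusted p = 0.0174 in limma. ETV4 exceeded ETV5 in its rise by 0.14 on the log2 scale, and this gap overlapped between the groups (exact permutation p = 0.3).

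The third PEA3 gene, ETV1, moved the same way. It read 70.1, 59.2 and 60.7 in PRL-3 arrays, against 46.0, 38.5 and 37.4 in control arrays, and rose by 0.64 ± 0.104 (log2, SE, adjusted p = 0.00902, limma). All 6 of these values lie under the 78.6 mark, so ETV1 was read from dim signal. Without control 2 its adjusted p was 0.0579.

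Among the phosphatases, DUSP6 had the tightest replicates. It read 70.7, 66.8 and 65.4 in PRL-3 arrays, against 50.4, 49.7 and 47.3 in control arrays (probe set 7965335). The groups were apart by 0.38 on the log2 scale, more than the SD within either group (0.058 and 0.049). DUSP6 rose by 0.46 ± 0.068 (log2, SE, 95% interval 0.31 to 0.62), or 1.38-fold, with adjusted p = 0.00627 in limma. All of its values, in PRL-3 and control arrays alike, lie under the 78.6 mark. DUSP5 (probe set 7930413) read 87.1, 107 and 90.6 in PRL-3 arrays, against 75.8, 68.3 and 70.3 in control arrays. The 3 control values lie under the 78.6 mark. PRL-3 5 stood above the rest of its group, and the log2 difference was 0.41 ± 0.094 (SE, 95% interval 0.19 to 0.62), or 1.32-fold, with adjusted p = 0.0379 in limma. This call was the weakest of the 4 and was lost whichever array was left out.

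The remaining phosphatases showed no difference past the threshold. DUSP7, the near relative of DUSP6, read 156, 180 and 156 in PRL-3 arrays, against 200, 184 and 151 in control arrays, and control 3 lay below every PRL-3 array. Its difference was -0.11 ± 0.115 (log2, SE, 95% interval -0.38 to 0.15, adjusted p = 0.679, limma). DUSP4 was read from dim signal on every array, at 5.49, 5.70 and 5.72 in PRL-3 arrays, against 5.58, 5.37 and 5.81 in control arrays (log2 intensity), with control arrays at both ends. It differed by 0.05 ± 0.12 (log2, SE, 95% interval -0.23 to 0.32), so a change of the size seen in DUSP6 lies outside that interval, as far as signal this dim can tell.

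Relatives were also compared within each array, as the log2 difference of 2 probe sets, which shows unequal change but no order of levels. DUSP6 minus DUSP7 was higher in PRL-3 arrays by 0.58, and the groups did not overlap: relative to the control mean it ran from 0.42 to 0.71 in PRL-3 arrays and from -0.14 to 0.18 in control arrays. DUSP4 minus DUSP5 was lower in PRL-3 arrays by 0.36 (a difference of -0.36), from -0.48 to -0.21 in PRL-3 arrays and -0.16 to 0.25 in control arrays. For SPRY2 minus SPRY4 (-0.06) and SPRY1 minus SPRY2 (0.05) the groups overlapped. Over these and the ETV pair, 5 in all, the exact two-sided permutation p was 0.1 for the first 2, the smallest possible, and 0.25 after adjustment over the 5.

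The Sprouty genes and SPRED1 lay closer to 0. SPRY1, whose product blocks RAS activation by growth factor receptors, read 221.4, 246 and 235 in PRL-3 arrays, against 221.6, 194 and 198 in control arrays. PRL-3 4 and control 1 were almost equal, so the groups met, and the difference of 0.19 ± 0.08 (log2, SE, 95% interval 0.01 to 0.38) had an unadjusted p of 0.04 and an adjusted p of 0.217 in limma. SPRY4, which also acts on RAS and RAF activation, read 81.5, 91.7 and 76.3 in PRL-3 arrays, against 68.4, 70.4 and 77.7 in control arrays. PRL-3 6 lay just under control 3, and SPRY4 differed by 0.20 ± 0.09 (log2, SE, 95% interval -0.01 to 0.41, adjusted p = 0.263, limma).

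SPRY2, the Sprouty studied most as a receptor feedback inhibitor, read 140, 158 and 142 in PRL-3 arrays, against 137, 150.1 and 114 in control arrays, with control 2 above 2 of the PRL-3 arrays. Its difference was 0.14 ± 0.109 (log2, SE, 95% interval -0.11 to 0.39, adjusted p = 0.561, limma). SPRED1, which brings neurofibromin to the membrane to switch RAS off, read 158, 196 and 167 in PRL-3 arrays, against 212, 186 and 161 in control arrays, with overlap and a difference of -0.10 ± 0.121 (log2, SE, 95% interval -0.38 to 0.18, adjusted p = 0.738, limma). For the Sprouty genes the intervals reach from about no change to a rise near that of DUSP5 or DUSP6. These data therefore do not separate a small rise in Sprouty mRNA from none.

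**Figure D2:**
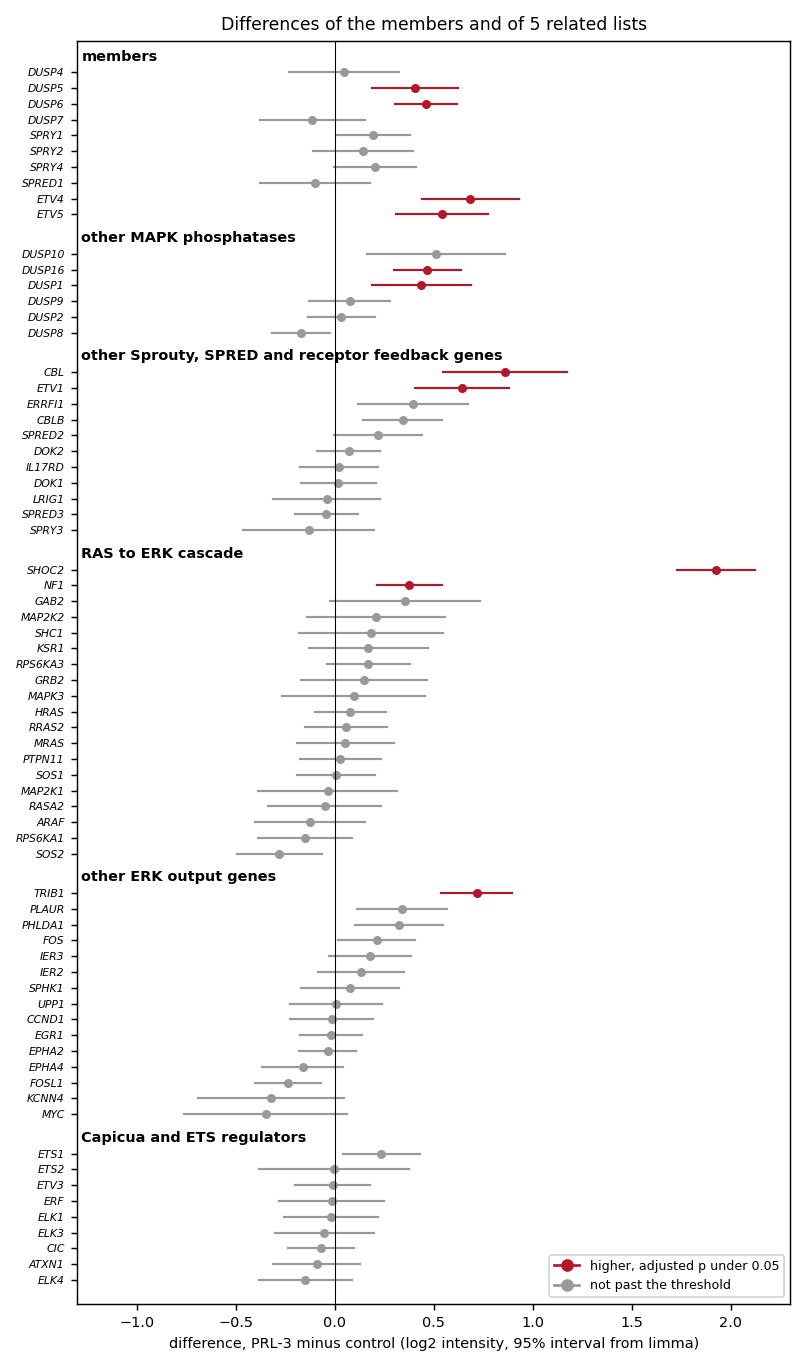
Difference in log2 intensity, PRL-3 minus control, with its 95% interval from limma, for the 10 genes (top, in order of role) and for 5 lists of related genes (each sorted by difference). Red marks adjusted p under 0.05, which 7.69% of all genes reached. In the lists 7 genes are red, all to the right of 0, with SHOC2 farthest out at 1.92. By list, from the top, they are 2 of 6, 2 of 11, 2 of 19, 1 of 15 and 0 of 9 measured genes.

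A few arrays stood at the ends of the range for many of the 10 genes. PRL-3 5 was the highest of the 6 arrays for 6 of the 10 genes, and control 3 was the lowest for 5 and control 2 for 3. With 1 array left out, ETV4 and DUSP6 passed in 6 of 6 fits, with adjusted p of 0.0126 to 0.0441 and 0.0143 to 0.0387 in limma. ETV5 passed in 3 of 6. It was lost without PRL-3 4 (adjusted p = 0.066), without PRL-3 6 (adjusted p = 0.0706) and without control 2 (adjusted p = 0.0724). DUSP5 passed in 0 of 6, with adjusted p of 0.0587 without control 1, 0.0632 without PRL-3 5, 0.0667 without control 3, 0.0675 without PRL-3 4, 0.0967 without PRL-3 6 and 0.158 without control 2 in limma. The count of genes called higher among the 10 was thus 2 or 3 in these fits. Without control 1 and PRL-3 5 together it was 3. A test of each gene on its own 6 values, allowing unequal variances, called 0 of the 10. Of all 18377 genes it called 7 higher and 4 lower. In that test 4 of the 10 had an unadjusted p under 0.05, as had 2663 of all genes. Its adjusted p was 0.106 for DUSP6, 0.174 for ETV4, 0.289 for DUSP5 and 0.313 for ETV5.

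**Figure D3:**
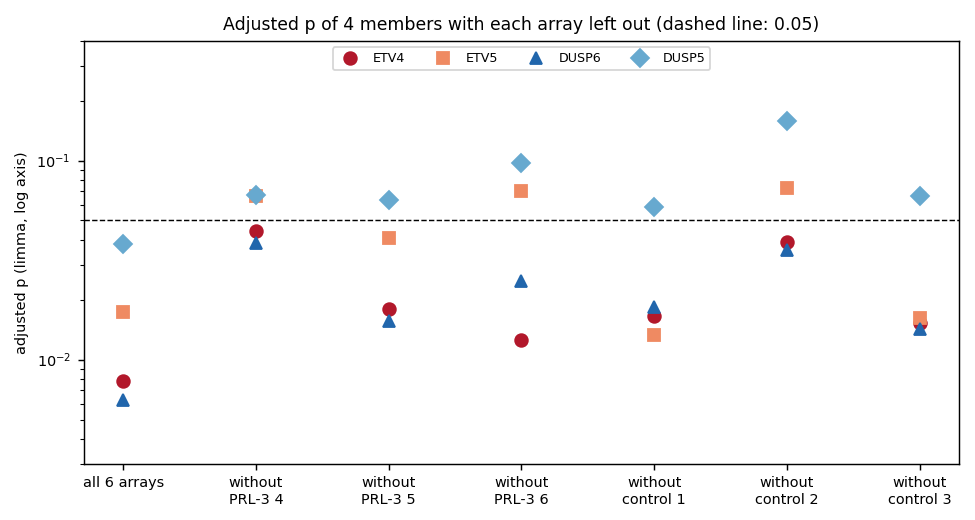
Adjusted p in limma (log axis) of the 4 genes called higher, with all 6 arrays and with each array left out in turn. ETV4 and DUSP6 stay under the dashed line at 0.05 throughout, ETV5 crosses it in 3 fits and DUSP5 lies above it in all 6 that leave an array out.

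DUSP5 lies among genes that also rose. Of the 10 nearest measured genes on chromosome 10, 5 on either side by RefSeq order, 5 were higher with PRL-3 and 0 lower, where 4.58% of all genes were higher, with a median difference of 0.53 on the log2 scale. They were ADD3, which encodes an adducin of the membrane skeleton (0.52), SMC3, a core subunit of cohesin (1.40), PDCD4, an inhibitor of translation initiation (0.81), SHOC2, a scaffold that aids RAF activation (1.92), and the pseudogene RPL13AP6 (0.72). SMC3 is the next measured gene along from DUSP5. On the other side SMNDC1 had a difference of 0.54 but did not pass (adjusted p = 0.116, limma). RPL13AP6 passed in 2 of 6 fits with 1 array left out, lost without PRL-3 4, PRL-3 6, control 1 or control 2 (adjusted p of up to 0.0882); the other 4 passed in 6 of 6. Among the 10 neighbours of each other gene, between 0 and 3 passed in either direction (7.69% of all genes did), and median differences ran from -0.13 to 0.08. For ETV4 and for DUSP4 the count was 0 of 10, and for DUSP6 it was 1, POC1B (0.28). The neighbours were looked at after the differences were known, and whether the rise of DUSP5 belongs with that of this stretch was not tested.

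**Figure D4:**
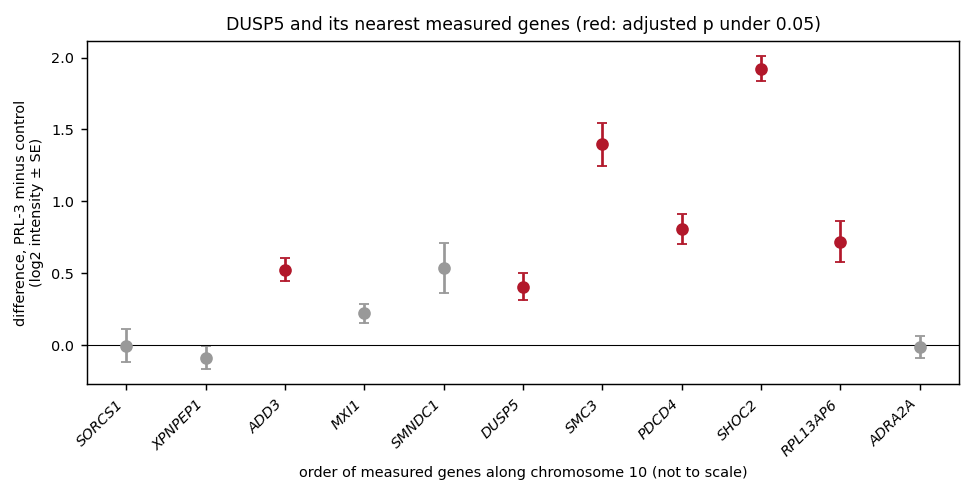
Difference in log2 intensity, PRL-3 minus control (± SE from limma), of DUSP5 and the 5 nearest measured genes on either side, in their order along chromosome 10 (not to scale). Red marks adjusted p under 0.05: 5 neighbours are red, with SHOC2 at 1.92 and SMC3 at 1.40 the highest.

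Of 6 other MAP kinase phosphatases measured, 2 rose and 0 fell, beside 4.58% higher and 3.11% lower among all genes, with a median difference of 0.26 on the log2 scale. DUSP16, which acts mainly on JNK and p38, read 238, 228 and 209 in PRL-3 arrays, against 161, 167 and 160 in control arrays, and rose by 0.47 ± 0.073 (log2, SE, adjusted p = 0.00775, limma). DUSP1, an immediate early phosphatase of all 3 MAP kinase families, read 88.4, 114 and 86.9 in PRL-3 arrays, against 72.2, 68.4 and 71.6 in control arrays. Its 3 control values lie under the 78.6 mark. DUSP1 rose by 0.44 ± 0.109 with adjusted p = 0.0496 in limma, at the edge of the threshold. It passed in 0 of 6 limma fits with 1 array left out (adjusted p of 0.0504 without PRL-3 5 to 0.185 without control 2). DUSP10 (0.51, adjusted p = 0.0915, limma) and DUSP8 (-0.17, adjusted p = 0.175, limma) did not pass, although the difference of DUSP10 was the largest of the list.

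Of 11 measured relatives and receptor feedback genes, 2 rose and 0 fell (18.2% called, against 7.69% of all genes, with a median difference of 0.07 on the log2 scale): ETV1 and CBL. CBL, a ubiquitin ligase that sends activated receptors such as KIT for destruction, read 301, 366 and 290 in PRL-3 arrays, against 193, 192 and 144 in control arrays. The groups were well apart and CBL rose by 0.86 ± 0.135 (log2, SE, adjusted p = 0.00807, limma), more than any of the 10 genes in point value. ERRFI1, an inhibitor of EGF receptor family kinases (0.40, adjusted p = 0.0968, limma), and CBLB (0.34, adjusted p = 0.0531, limma) did not pass.

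**Figure D5:**
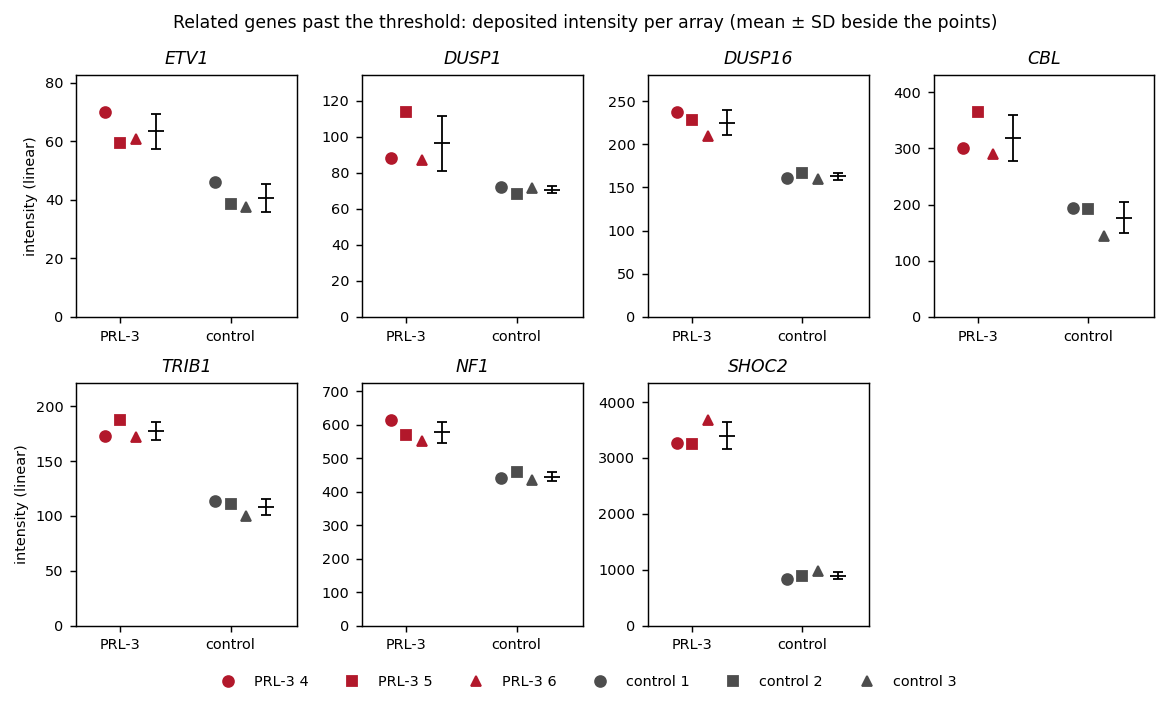
Deposited intensity (linear, each axis from 0) of the 7 related genes that passed the threshold, on 3 PRL-3 arrays and 3 control arrays, with bars for mean ± SD (n = 3). Each PRL-3 array lies above each control array in all 7 panels, which the choice of genes past the threshold favours. The same order of arrays held for 12.1% of all genes. SHOC2 has the widest gap.

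In the cascade from RAS to ERK, 2 of 19 measured genes rose and 0 fell (7.69% of all genes were called), with a median difference of 0.08 on the log2 scale. SHOC2 read 3274, 3250.1 and 3675 in PRL-3 arrays, against 836, 881 and 973 in control arrays (log2 difference 1.92 ± 0.086, SE, adjusted p = 3.42e-05, limma). NF1, the gene of neurofibromin, read 614, 568 and 552 in PRL-3 arrays, against 442, 459 and 434 in control arrays, and rose by 0.38 ± 0.071 (adjusted p = 0.0174, limma). Its other 2 probe sets differed by 0.08 and 0.09 and did not pass. NF1 passed in 3 of 6 fits, and was lost without PRL-3 4 (adjusted p = 0.0825), without control 1 (adjusted p = 0.0549) and without control 2 (adjusted p = 0.0632). GAB2, an adaptor of cytokine receptors (0.36, adjusted p = 0.279, limma), and SOS2, a RAS exchange factor (-0.28, adjusted p = 0.125, limma), did not pass.

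Of 15 other measured genes known to follow ERK output, 1 rose and 0 fell, and the median difference was 0.004 on the log2 scale; 6.67% called is near the 7.69% of all genes. The one was TRIB1, a pseudokinase that binds MEK, which read 173, 187 and 172 in PRL-3 arrays, against 113, 111 and 100.0 in control arrays (0.72 ± 0.077, adjusted p = 0.0017, limma). MYC, a growth transcription factor (-0.35, adjusted p = 0.337, limma), and PLAUR, the urokinase receptor gene (0.34, adjusted p = 0.0857, limma), had the next largest differences and did not pass. Of 9 measured genes for Capicua, its partner ataxin-1 and other ETS factors, 0 passed in limma and 1 had an unadjusted p under 0.05. That was ETS1 (0.23, adjusted p = 0.158, limma), followed by ELK4 (-0.15, adjusted p = 0.507, limma). CIC itself, which encodes Capicua, read 120.1, 137 and 128 in PRL-3 arrays, against 134, 132.5 and 138 in control arrays, with overlap.

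The genes most like each called gene were found by the root mean square difference of log2 profiles over the 6 arrays, each centred on its own mean. For ETV4 they were PLXDC2 (0.024), NDRG2 (0.048) and STN1 (0.054). For ETV5 they were GRAMD2B (0.045), DPF1 (0.049) and AARS1 (0.051). DUSP6 was nearest to SNORD116-14 (0.029), TMEM209 (0.030) and MORN4 (0.036). DUSP5 was nearest to COX8A (0.036), PLAUR (0.049) and SLITRK5 (0.051). None of the other 9 genes was among the 3 nearest of any of these 4. With 6 arrays and 18377 genes, near matches of this kind are a description of these arrays.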

How the data were processed

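Total RNA of 6 TF-1 samples (100 ng each) was labelled with biotin using Nugen kits, per the labels' protocols, and measured on a whole-transcript array. The authors deposited 1 intensity per probe set and array, on a linear scale, for 28869 probe sets; the summary of probes, background correction and normalization were not given in the sources used here. Array medians lay close together, so values were taken as normalized, and differences are relative to the bulk of genes. Log2 was taken with no offset. Of the probe sets, 19310 had 1 gene symbol (19279 matched RefSeq by Entrez identifier), 1752 several and 7807 none; the brightest of a gene's probe sets stood for it. The groups were set against each other in limma 3.58.1 under R 4.3.3 (lmFit, eBayes, two-sided, Benjamini-Hochberg over 18377 genes, threshold 0.05). Errors after differences are moderated standard errors. The test was checked on simulated data with noise drawn independently for each gene and array. That check cannot speak to shared array effects or technical replicates. The number of arrays limits precision.

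The 10 genes and the related lists were chosen with earlier results of these data known. All 10 were named whatever their result; of each list, the genes past the threshold and the 2 next largest were named. List members without a probe set of 1 symbol were not analysed here. Protein sequences were not used here. Figures were drawn with matplotlib 3.10.9. Alternatives were another normalization (2 kinds), variance model, array weights, 2 filters on dim genes, other handling of several probe sets (2 kinds), an unequal-variance test, an offset, and arrays left out.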

Additional observations from a re-analysis of the deposited data

How the results depend on the processing

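Of 17 alternatives, ETV4 was tested in 16 and DUSP6 in 15. Both kept their direction there and passed in all but the unequal-variance test. DUSP6 was not tested in the 2 filters on dim genes, nor ETV4 in the stricter one. ETV4 got through the other filter, at the olfactory receptor mark, only through its PRL-3 arrays. Its pass there says nothing of stability. The number of the 10 genes called higher was 4 with either other normalization, the other variance model, either handling of several probe sets and the offset, and 5 with array weights, which took in SPRY1 (adjusted p = 0.0319, limma). It was 3 without control 1 and PRL-3 5 together. It was also 3 among genes above the olfactory receptor mark, which says nothing of stability, since ETV4 and DUSP5 pass that filter through their PRL-3 arrays. It was 1 among genes at or above the median level, where the filter removed the other 3, and 0 in the unequal-variance test, where 2663 of all genes had an unadjusted p under 0.05. Leaving out 1 array gave 2 to 3 of the 10 genes, 388 to 792 of all genes higher (fewest without control 2), and 178 to 747 of all genes lower (fewest without control 2, most without control 3). Array weights called 2122 genes higher and 2303 lower and the unequal-variance test 7 and 4. The weights were 4.7 for control 2, 0.648 for control 1 and 0.365 for control 3. They were 1.73 for PRL-3 4, 0.411 for PRL-3 5 and 1.27 for PRL-3 6. The weighted control mean thus leaned on control 2, which was the lowest of the 6 arrays for SPRY1. SPRY2 had a difference of -0.031 with array weights, where control 2, its highest control array, weighed most. Without control 3, its lowest array, SPRY2 had 0.031. DUSP4 had -0.064 without control 2 and 0.16 without control 3. Neither gene passed in any setting, and the cause was not tested.

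The counts of the related lists are small, so 1 gene moves them. Of the MAP kinase phosphatases 3 passed with array weights, 1 after the shift to one median, among genes at or above the median level, with every probe set on its own, with the offset, with control 1 and PRL-3 5 left out together and with any 1 array left out, and 0 in the unequal-variance test. Of the relatives and receptor feedback genes 4 passed with array weights, 3 with quantile normalization, 1 in each filter on dim genes, 1 (without control 2) to 2 with an array left out and 0 in the unequal-variance test. Of the cascade 6 passed with array weights, and 1 with probe sets of a gene averaged, in the unequal-variance test and without control 1 and PRL-3 5, with 1 to 2 when an array was left out. Of the ERK output genes 7 passed with array weights, 2 with quantile normalization, 1 to 2 (without control 3) with an array left out and 0 in the unequal-variance test. Of Capicua and the ETS regulators 2 passed with array weights. No paired analysis was possible because the labels number the control arrays 1 to 3 and the PRL-3 arrays 4 to 6, so the groups share no replicate number. Dim signal limits what can be said of DUSP4, DUSP6, SPRY4 and ETV1, whose mean over the 6 arrays lay under the 78.6 mark. The same limit holds for ETV4, DUSP5 and DUSP1, whose 3 control arrays all lay under it.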
